A study of Mus musculus with 2 samples.

Results

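The genes described here are 32 lysosome genes: 8 cathepsins and related peptidases, 8 other hydrolases, 7 membrane proteins, 5 genes of lipid handling and hydrolase activation, and 4 genes of the proton pump. They were listed by name, with earlier results of these data known, and matched between libraries by Ensembl identifier. All 32 carried at least 20 UMIs (tags that mark single RNA molecules, so that copies are counted once), out of 29413 genes listed for both libraries and 13022 that reached 20 UMIs. Their levels were followed across alveolar, interstitial and monocyte-derived macrophages, monocytes, dendritic cells, lymphocytes and neutrophils. The cells were immune cells sorted from metastatic lungs of female Balb/c mice, 7 days after labelling 4T1 cells had been injected into a vein. 4T1 is a mouse mammary carcinoma line, and in the labelling system known for it the tumour cells release a fluorescent protein that neighbouring cells take up. There was 1 library of niche cells and 1 library of distal lung cells, made with a droplet-based 3′ kit. Neither the number or age of the animals nor the sort gates are given in the sources used here, and both libraries came from injected mice, so no lung free of tumour cells was compared.

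Lysosomes are acidic compartments in which proteins, sugars, lipids and nucleic acids are broken down. A vacuolar proton pump acidifies the lumen, soluble hydrolases such as the cathepsins cut the material delivered to it, and heavily glycosylated membrane proteins line the wall and carry products out. Macrophages depend on them to digest what they engulf, alveolar macrophages also clear surfactant lipid through them, and dendritic cells and B cells use them to prepare antigen for MHC class II. Many lysosome genes carry an E-box known as the CLEAR element, through which the transcription factor TFEB and its relatives act.

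The distal library held 3945 barcodes and 22323465 UMIs, and the niche library 3242 barcodes and 38036915 UMIs. After filtering, 3536 distal cells with a median of 5789.5 UMIs and 3080 niche cells with a median of 11192.5 UMIs were kept, and 4 barcodes occurred in both libraries. Cells were clustered without the 32 members and without a further list of 74 lysosome genes, so the classes do not rest on the genes described. A class was named after the marker set its clusters carried, and each name below stands for cells like that type. Alveolar macrophage-like clusters carried 11 of their 12 markers and interstitial macrophage-like cells 11 of 12. Monocyte-derived macrophage-like clusters carried between 9 and 11 of 12, and several of these are also interstitial macrophage markers. The monocyte-derived list does not separate these classes by itself: it summed to 14188 CPM in distal and 17456 CPM in niche monocyte-derived cells, and to 20345 and 19528 CPM in interstitial cells. The interstitial list was higher in the class named for it, at 34055 against 16595 CPM in the distal and 23227 against 13579 CPM in the niche library. The monocyte-like cluster carried the markers of non-classical monocytes, but it was not made of these alone. At resolution 2.0 there was a non-classical cluster (170 distal and 11 niche cells) and a cluster named by 7 classical monocyte markers (93 and 29 cells). Clusters with markers of several lineages (6.25% of distal and 8.70% of niche cells) and a cluster of low UMI counts (0.368% and 10.3%) were kept out of the named classes, as was a small cluster led by Gpnmb. Each group had a single library, hence no replicates, and nothing was tested. Levels are UMIs of a gene per 1000000 UMIs of its class (CPM), and the 95% intervals printed reflect the counting of UMIs alone, so each difference is one between these libraries.

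Among named classes with at least 50 cells, macrophages carried the most lysosome RNA and lymphocytes the least. In distal alveolar macrophage-like cells the 32 genes together reached 27331 CPM (exact Poisson interval 27218 to 27444, 1108 cells), which was 2.73% of all UMIs of the class. The sum was 23782 CPM (23593 to 23972, 308 cells) in distal monocyte-derived macrophage-like cells and 26345 CPM (26278 to 26413, 1775 cells) in niche ones. The alveolar lead over distal monocyte-derived cells rested on 1 gene, the aspartic protease Ctsd: without it the sums were 22914 and 23175 CPM. Interstitial macrophage-like cells summed to 20183 CPM in the distal library (119 cells) and 21374 CPM in the niche library (129 cells).

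Proliferating cells of both macrophage kinds carried lower sums than their resting counterparts. These were 20320.0 CPM in 99 distal proliferating alveolar cells and 20497 CPM in 236 niche proliferating monocyte-derived cells, and their intervals overlapped each other and that of distal interstitial cells. Monocyte-like cells followed at 15614 CPM (distal, 270 cells). Migratory dendritic cell-like cells had 13149 CPM in the niche (66 cells) and 10767 CPM in the distal library (55 cells), the latter overlapping conventional dendritic cell-like cells at 10659 CPM (distal, 147 cells). Neutrophil-like cells had 6033 CPM (362 cells), and T cell-like and B cell-like cells had 2916 and 2887 CPM (369 and 199 cells), with overlapping intervals. Plasmacytoid dendritic cell-like cells, under 50 in each library, lay above monocyte-like cells, at 18919.5 CPM (distal, 31 cells) and 21944.5 CPM (niche, 17 cells). The monocyte-derived macrophage markers summed to 2981 and 9160 CPM in these plasmacytoid cells.

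**Figure D1:**
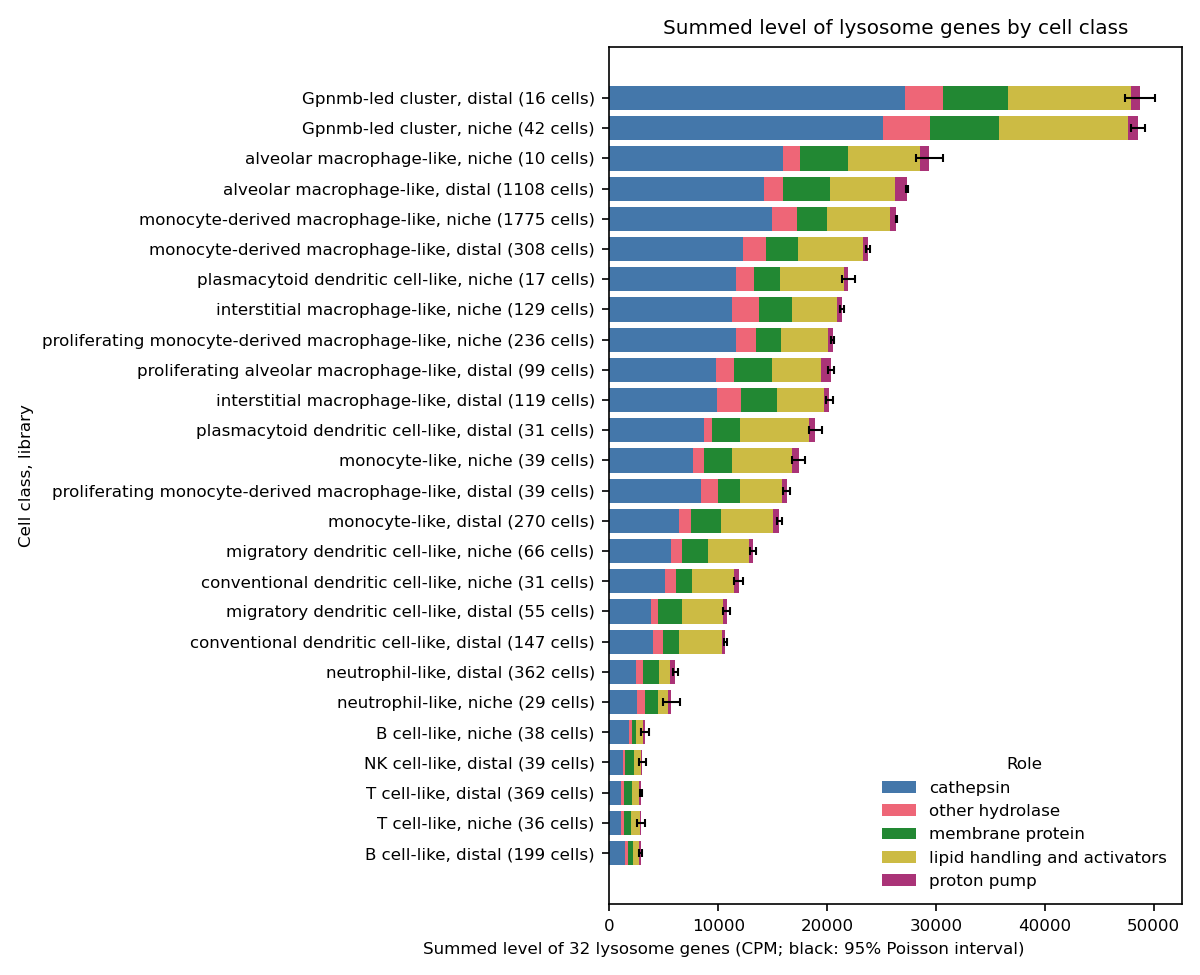
Summed level of the 32 lysosome genes (horizontal axis, CPM) in each cell class and library (vertical axis, with cell numbers), coloured by role, with 95% Poisson intervals in black. Macrophage-like classes with at least 50 cells lie at 20183 CPM or above, and distal T and B cell-like cells at 2916 and 2887 CPM.

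The roles were not shared out alike. Cathepsins took 14236 CPM of the sum in distal alveolar cells, 12286 CPM in distal monocyte-derived cells and 9856 CPM in distal interstitial cells. Membrane proteins took 4349, 2930 and 3318 CPM in the same classes, and genes of lipid handling and activation 6017, 5943 and 4370 CPM. The other hydrolases were lowest in alveolar cells, with 1675.5 CPM (1648 to 1704) against 2105 and 2193 CPM. Of the cathepsin sum, Ctsd alone made up 4417 CPM in alveolar and 606 CPM in monocyte-derived cells, more than the gap between these classes. Proton pump genes differed most in proportion, with 1054 CPM in alveolar, 518 CPM in monocyte-derived and 447 CPM in interstitial cells.

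Among distal classes with at least 50 cells, 17 of the 32 genes had their highest level in alveolar macrophage-like cells, against 12.5% of 11387 genes measured. Another 5 (Ctsb, Gusb, Lgmn, Cd63 and Grn) peaked in interstitial cells, where 6.81% of genes did, and 3 (Ctsc, Ctsh and Ctsz) in monocyte-derived cells, where 3.48% did. Glb1, Gaa and Scarb2 peaked in proliferating alveolar cells, Gla and Lamp2 in neutrophil-like cells, Man2b1 in monocyte-like cells and Npc2 in migratory dendritic cell-like cells. In the niche library only monocyte-derived, proliferating monocyte-derived, interstitial and migratory dendritic cells reached 50 cells, so peaks there were taken over fewer classes. Alveolar cells (10), monocytes, conventional dendritic cells, lymphocytes and neutrophils did not enter. Of the members, 21 peaked in monocyte-derived cells (17.6% of 11351 genes) and 9 in interstitial cells, near the share of genes at large (27.7%). Ctsc peaked in proliferating monocyte-derived cells and Npc2 again in migratory dendritic cells. Several of these peaks were narrow: in the distal library Ctsb was 1794 CPM in interstitial and 1751 CPM in monocyte-derived cells, and Tpp1 was 174 CPM in alveolar and 173 CPM in proliferating alveolar cells.

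**Figure D2:**
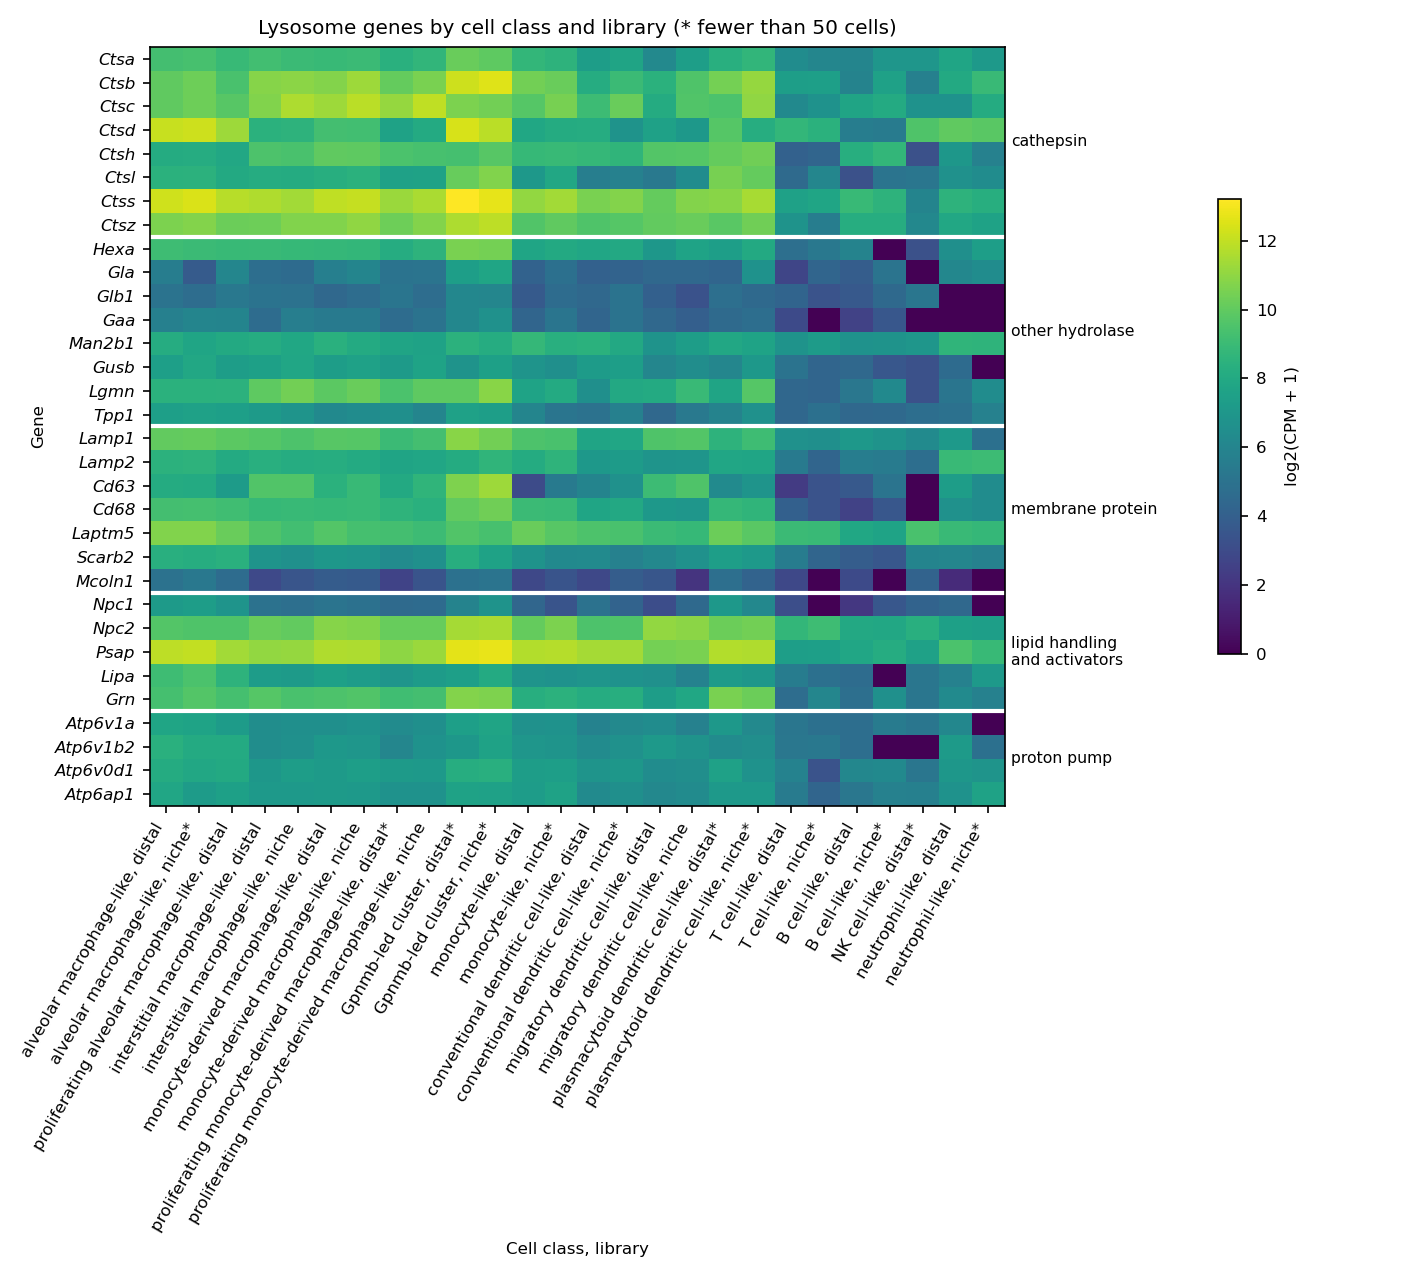
Level of each lysosome gene (rows, grouped by role) in each class and library (columns, starred where fewer than 50 cells), coloured by log2(CPM + 1). Macrophage columns are high for most rows and T and B cell columns low, with Ctsd high in the alveolar columns and Ctsh low in T cells but not in B cells.

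Cathepsin S (Ctss), the cysteine protease that trims the invariant chain of MHC class II, was the member with the most UMIs. Its level in distal cells was 4958 CPM in alveolar, 3572 CPM in proliferating alveolar, 3947 CPM in monocyte-derived and 3149 CPM in interstitial macrophages. Monocytes had 2160.3 CPM, conventional dendritic cells 1479.7 CPM, migratory dendritic cells 1071 CPM, B cells 482 CPM, neutrophils 366 CPM and T cells 189 CPM. In the niche it was 4245 CPM in monocyte-derived, 2930.2 CPM in proliferating monocyte-derived and 2706 CPM in interstitial macrophages and 1715 CPM in migratory dendritic cells. Macrophages were high and lymphocytes low, with B cells above T cells. Over the 12 groups with fewer than 50 cells, Ctss ran from 61.5 CPM in distal NK cell-like cells to 9504 CPM in the distal Gpnmb-led cluster.

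Cathepsin C (Ctsc, chr7:88278085-88310888 on the plus strand of GRCm38), a dipeptidyl peptidase that activates granule serine proteases, had another order. Distal monocyte-derived cells had 2515 CPM, interstitial 1682 CPM, alveolar 1015 CPM and proliferating alveolar cells 868 CPM. The other distal classes had 847 CPM (monocytes), 526 CPM (conventional dendritic cells), 274 CPM (migratory dendritic cells), 207 CPM (B cells), 105 CPM (neutrophils) and 76.0 CPM (T cells). Niche levels were 3721 CPM in monocyte-derived, 3905 CPM in proliferating monocyte-derived, 3111 CPM in interstitial cells and 789.9 CPM in migratory dendritic cells. The alveolar class, highest for 17 members, was below both other macrophage classes for Ctsc, and the 3 classes with at least 50 cells in both libraries were each higher in the niche. The smaller groups ran from 105 CPM in niche T cells to 2250.3 CPM in distal proliferating monocyte-derived cells.

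Cathepsin D (Ctsd, chr7:142375911-142388038, minus strand) was the member with the widest gap between macrophage classes. It stood at 4417 CPM in distal alveolar and 2492 CPM in proliferating alveolar cells, against 606 CPM in monocyte-derived and 348 CPM in interstitial cells. The log2 ratio of alveolar over monocyte-derived cells was 2.86 (exact interval 2.79 to 2.94), a fold of 7.28. Distal neutrophils had 1019 CPM and distal T cells 429 CPM, both above distal monocytes (233 CPM) and migratory dendritic cells (188 CPM), and B cells had 48.4 CPM. Ctsd shares exonic bases with a gene that is in the niche list alone, so its niche and distal levels are less comparable than those of the other 31 genes; the ratios within the distal library do not cross lists.

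Cathepsin H (Ctsh), an aminopeptidase, was 1027 CPM in distal monocyte-derived cells, 815 CPM in migratory dendritic cells, 725 CPM in interstitial cells and 284 CPM in alveolar cells. B cells had 311 CPM and T cells 16.4 CPM, a log2 ratio of T over B cells of -4.22 (-4.86 to -3.67). Cathepsin B (Ctsb), a broad cysteine protease, was 1794 CPM in interstitial, 1751 CPM in monocyte-derived, 1351 CPM in monocyte and 1027 CPM in alveolar cells of the distal library. For cathepsin Z (Ctsz), a carboxypeptidase, distal monocyte-derived and alveolar cells were close, at 1649.7 (1600.2 to 1700.3) and 1571 CPM. Cathepsin L (Ctsl) was 342 CPM in alveolar, 307 CPM in monocyte-derived and 289 CPM in interstitial cells and 8.63 CPM in B cells. Cathepsin A (Ctsa), which also shields other hydrolases, was 623, 483 and 597 CPM in the same macrophage classes.

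Legumain (Lgmn), the asparaginyl endopeptidase that processes cathepsins, had the most UMIs of the other hydrolases. In the distal library it was 993 CPM in interstitial, 960 (922 to 999) CPM in monocyte-derived, 353 CPM in proliferating alveolar and 341 CPM in alveolar cells. Migratory dendritic cells had 267 CPM, monocytes 206 CPM, conventional dendritic cells 95.1 CPM, B cells 36.3 CPM, neutrophils 34.2 CPM and T cells 20.4 CPM. The niche levels were 1339.6 CPM in interstitial, 1183 CPM in monocyte-derived, 976 CPM in proliferating monocyte-derived and 487 CPM in migratory dendritic cells. Like Ctsc, Lgmn was lower in alveolar cells than in either of the other macrophage classes. Groups under 50 cells ran from 8.79 CPM in distal NK cells to 1853 CPM in the niche Gpnmb-led cluster.

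Hexosaminidase A (Hexa), which degrades GM2 ganglioside, followed the summed level more closely. Distal values were 557 CPM in alveolar, 499 CPM in interstitial, 478 CPM in proliferating alveolar and 452 CPM in monocyte-derived cells. They were 228 CPM in conventional dendritic cells, 215 CPM in monocytes, 125 CPM in migratory dendritic cells, 94.2 CPM in neutrophils, 58.7 CPM in B cells and 27.2 CPM in T cells. In the niche interstitial cells had 458 CPM, monocyte-derived 425 CPM, proliferating monocyte-derived 374 CPM and migratory dendritic cells 199 CPM. Among classes with at least 50 cells, the macrophage classes lay close together and apart from all others. In the smaller groups Hexa ran from 0 UMIs in niche B cells to 1530.0 CPM in the distal Gpnmb-led cluster.

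The glycosidases were less abundant. Acid alpha-mannosidase (Man2b1) was highest outside macrophages, with 446 CPM in distal monocytes and 398 CPM in neutrophils against 337 CPM in monocyte-derived and 294 CPM in alveolar cells. Alpha-galactosidase A (Gla) was 68.5 CPM in neutrophils, 66.7 CPM in proliferating alveolar and 51.4 CPM in monocyte-derived cells. Beta-glucuronidase (Gusb) was 184 CPM in distal interstitial, 178 CPM in alveolar, 165 CPM in monocyte-derived and 154 CPM in conventional dendritic cells, and 115 CPM in monocytes and 23.5 CPM in neutrophils. Neither beta-galactosidase (Glb1) nor acid alpha-glucosidase (Gaa) had a UMI in distal neutrophils, which allows up to 6.42 CPM, and their highest distal levels were 38.0 and 61.6 CPM in proliferating alveolar cells. Tripeptidyl peptidase (Tpp1) was 174 CPM in alveolar and 145 CPM in interstitial but 75.8 CPM in monocyte-derived cells.

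Laptm5, a membrane protein of blood cell lysosomes that takes part in turnover of antigen receptors, had a flat pattern for so abundant a member, with 7.14 times as much in its highest as in its lowest distal class. Distal levels were 1676 CPM in alveolar, 1189 CPM in proliferating alveolar, 1163 CPM in monocyte, 811 CPM in monocyte-derived and 772 CPM in interstitial cells. Conventional dendritic cells had 747 CPM, migratory dendritic cells 520.0 CPM, T cells 514 CPM, neutrophils 497 CPM and B cells 235 CPM. The niche levels were 636 CPM in monocyte-derived, 599 CPM in interstitial, 530.0 CPM in proliferating monocyte-derived and 462 CPM in migratory dendritic cells. T cells thus held 63.4% of the level of distal monocyte-derived cells. The smaller groups spanned 199 CPM in niche B cells to 1674 CPM in the 10 niche alveolar cells.

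Lamp1 (chr8:13159161-13175338, plus strand), a major glycoprotein of the lysosomal wall, was 1059.9 CPM in distal alveolar, 946 CPM in proliferating alveolar, 883 CPM in monocyte-derived and 855 CPM in interstitial cells. Distal migratory dendritic cells had 766 CPM and monocytes 724 CPM, well above conventional dendritic cells at 209.6 CPM, neutrophils at 139 CPM, B cells at 131 CPM and T cells at 100.3 CPM. Niche levels were 834 CPM in monocyte-derived, 826 CPM in migratory dendritic, 739.9 CPM in interstitial and 625 CPM in proliferating monocyte-derived cells. Migratory dendritic cells were therefore close to macrophages for Lamp1, while conventional ones were not. Over the smaller groups Lamp1 ran from 28.0 CPM in niche neutrophils to 1873 CPM in the distal Gpnmb-led cluster.

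Cd63, a tetraspanin of late endosomes that is released on exosomes, differed widely over distal classes. It was 777 CPM in interstitial, 525 CPM in migratory dendritic, 343 CPM in monocyte-derived and 275 CPM in alveolar cells, but 7.18 CPM in monocytes and 3.97 CPM in T cells. The log2 ratio of monocyte-derived over monocyte-like cells was 5.49 (4.59 to 6.79). Cd68, a macrophage glycoprotein, showed no such gap: it was 517 CPM in monocytes and 455 CPM in monocyte-derived cells, against 5.18 CPM in B cells. Lamp2 was highest in neutrophils at 492 CPM, above alveolar cells at 364 CPM. Scarb2, which carries glucocerebrosidase to the lysosome, was 325 CPM in alveolar and 126 CPM in monocyte-derived cells, and the calcium channel Mcoln1 was 30.2 and 13.4 CPM.

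Psap, the precursor of the saposins that activate sphingolipid hydrolases, led the lipid group. It was 3860.3 CPM in distal alveolar, 3257 CPM in monocyte, 3160.4 CPM in monocyte-derived and 2783 CPM in conventional dendritic cells. Proliferating alveolar cells had 2663 CPM, interstitial 2143 CPM, migratory dendritic 1377 CPM, neutrophils 710.5 CPM, B cells 223 CPM and T cells 169 CPM. The niche levels were 3106 CPM in monocyte-derived, 2427 CPM in proliferating monocyte-derived, 2219.6 CPM in interstitial and 1514 CPM in migratory dendritic cells. For Psap, monocytes and conventional dendritic cells reached macrophage levels. The smaller groups ran from 172 CPM in niche T cells to 6894 CPM in the niche Gpnmb-led cluster.

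Npc2, the soluble cholesterol carrier, was the member highest in migratory dendritic cells of both libraries. In the distal library it was 2119 CPM there, 1830.3 CPM in monocyte-derived, 1189 CPM in interstitial and 1071 CPM in monocyte-like cells. Alveolar cells had 817.5 CPM, proliferating alveolar 771 CPM, conventional dendritic cells 722 CPM, T cells 427 CPM, B cells 250.4 CPM and neutrophils 182 CPM. In the niche it was 1909 CPM in migratory dendritic, 1700.0 CPM in monocyte-derived, 1113 CPM in proliferating monocyte-derived and 1051 CPM in interstitial cells. Its membrane partner Npc1 had the opposite leaning, with 146 CPM in distal alveolar but 33.0 CPM in monocyte-derived and 7.84 CPM in migratory dendritic cells. The smaller groups gave Npc2 levels from 168 CPM in niche neutrophils to 2960.2 CPM in the niche Gpnmb-led cluster.

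Lysosomal acid lipase (Lipa), which frees cholesterol and fatty acids from esters, was 561 CPM in distal alveolar, 374 CPM in proliferating alveolar, 181 CPM in monocyte-derived and 158 CPM in interstitial cells. Progranulin (Grn), a precursor of lysosomal granulins, was more even over macrophages, at 849 CPM in interstitial, 738 CPM in monocyte-derived and 632 CPM in alveolar cells, and 25.5 CPM in T cells. Progranulin was also the member whose log2 level went most closely with the sum of the others over the 14 groups with at least 50 cells (Pearson r of 0.98), and Ctsd the least (0.39). These correlations describe groups of cells that share 2 libraries and are not tests.

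The proton pump genes had their highest distal level in alveolar cells without exception among the 4 measured. Atp6v0d1, a subunit of the membrane sector, was 281 CPM in alveolar, 259.7 CPM in proliferating alveolar, 162 CPM in monocyte, 148 CPM in monocyte-derived and 128 CPM in interstitial cells. Neutrophils had 126 CPM, conventional dendritic cells 115 CPM, migratory dendritic cells 86.2 CPM, B cells 69.1 CPM and T cells 57.2 CPM. In the niche it was 168 CPM in monocyte-derived, 162 CPM in interstitial, 137 CPM in proliferating monocyte-derived and 92.1 CPM in migratory dendritic cells. The spread over classes was narrow beside that of the cathepsins, and lymphocytes were again lowest. The smaller groups ran from 9.57 CPM in niche T cells to 321 CPM in the niche Gpnmb-led cluster.

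Atp6v1b2, a subunit of the catalytic sector, was 333 CPM in distal alveolar, 273 CPM in proliferating alveolar, 148 CPM in neutrophils, 136 CPM in migratory dendritic and 131 CPM in monocyte-derived cells. Monocytes had 122 CPM, interstitial cells 88.9 CPM, conventional dendritic cells 82.6 CPM, T cells 37.4 CPM and B cells 25.9 CPM. Niche values were 119.8 CPM in monocyte-derived, 111 CPM in migratory dendritic, 104 CPM in proliferating monocyte-derived and 99.3 CPM in interstitial cells. Resting and proliferating alveolar cells were apart from the other classes. In the smaller groups it ran from 0 UMIs in niche B cells to 266 CPM in niche alveolar cells. The catalytic subunit Atp6v1a was 216 CPM in alveolar and 95.03 CPM in monocyte-derived cells, and the accessory protein Atp6ap1 224 and 144 CPM.

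Counted by pairs of distal classes, with a ratio past 1.5-fold as the mark, 11 members were higher and 5 lower in alveolar than in monocyte-derived cells. Over 10170 genes the shares were 36.1% and 14.9%, so the count of higher members was near that of genes at large. The 5 lower ones were Ctsb, Ctsc, Ctsh, Lgmn and Npc2. Monocyte-derived against interstitial cells gave 5 higher (Gla, Mcoln1, Ctsd, Gaa and Npc2) and 2 lower (Tpp1 and Cd63), against 15.2% and 16.4% of genes. Of the higher ones, Mcoln1 (6.53 CPM in interstitial cells) had an interval that held 0, with a log2 ratio of 0.91 (-0.33 to 2.74). Gaa (24.8 CPM there) was loosely bounded, at 0.77 (0.09 to 1.58).

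Monocyte-derived cells stood further from monocytes. Of the 32 members 17 were past 1.5-fold higher and 0 lower, against 17.9% and 25.2% of genes, with a median log2 ratio of 0.70 over members and -0.09 over genes. Cd63, Lgmn (2.22) and Ctsc (1.57) had the largest ratios. Members with small ratios included the pump genes (-0.13 to 0.10), Psap (-0.04) and Cd68 (-0.19). Against conventional dendritic cells 25 members were higher and 0 lower (16.4% and 19.2% of genes, median 1.08), led by Lgmn at 3.33 and Ctsl at 2.65. The clusters rest on other genes of the same cells, so these counts describe the classes and test nothing.

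Lymphocytes had low sums but not uniformly low members. Against T cells, monocyte-derived cells were past 1.5-fold higher in 30 members and lower in 0 (24.3% and 32.6% of genes), the exceptions being Ctsd and Glb1. T against B cells gave 10 higher, led by Ctsd at 3.12 (2.60 to 3.75), and 8 lower, led by Ctsh (33.2% and 15.4% of genes). The count of higher members was near that of genes at large. The intervals of Gusb, Cd68 and Npc1 among the higher, and of Gla, Lgmn and Cd63 among the lower, held 0. In droplet data free RNA gives some UMIs of genes that a cell does not express, so the T cell levels were set beside genes of alveolar macrophages. Distal T cells (median 2815 UMIs) held between 1.48% and 3.73% of the alveolar level (median 7113.5 UMIs) of the alveolar genes Chil3, Plet1, Ear2 and Fabp1. Marco had 0 UMIs, but at 11.4 CPM in alveolar cells it was too low to measure this background in T or B cells. Cd63 (1.45%) and Cd68 (2.47%) were at the background of the other alveolar genes, and Ctss (3.81%), Grn (4.03%) and Psap (4.39%) little above it. Ctsd was at 9.70% with 756 UMIs, Laptm5 at 30.6%, Man2b1 at 37.6% and Npc2 at 52.3%. In B cells the alveolar genes other than Marco, which had 0 UMIs, were at 0.284% to 0.641% and Cd68 at 0.836%, whereas Ctsc was at 20.4% and Ctsh at 109.6% of the alveolar level.

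The members'  promoters were read from the RefSeq windows of GRCm38.p6, which span 250 bases before to 50 after a gene's start. Windows were found for 28 of the 32 members, all but Ctsb, Ctsh, Npc1 and Atp6v1b2. On either strand, the E-box core CACGTG was present in 11 of 28 windows (39.3%), against 8.09% of 27025 genes and 13 of 53 (24.5%) of the further lysosome genes that matched. The longer TCACGTG, which contains that core, was in 10 (35.7%) against 4.29% of genes and 12 of 53 (22.6%) further lysosome genes. The full CLEAR palindrome, which contains both, was in 0 member windows, 0.370% of genes and 2 of 53 (3.77%) further lysosome genes. GAGGAAGT, a PU.1 core, was in 4 (Ctsc, Ctss, Gla and Gusb, 14.3%) against 3.69% of genes and 0 of 53 further lysosome genes. A match describes letters in the window and not binding.

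Stretches around the cores of 5 members are printed below 5′ to 3′ on the gene's strand with CACGTG in capitals. They were taken because they lie outside the GENCODE body of the gene itself. Lamp1 has 4 copies between 61 and 15 bases before its start and Gla 2, at 227 and 194 bases, while each of the other stretches holds 1. Stretches not printed hold a further Ctsd core, 98 bases before its start, and 2 cores of Mcoln1. The printed stretches lie at chr8:13159080-13159160 (plus strand) for Lamp1, chr9:114401010-114401055 (plus) for Glb1, chrX:134601174-134601252 (minus) for Gla, chr11:119267803-119267848 (plus) for Gaa and chr7:142388047-142388077 (minus) for Ctsd.
Lamp1: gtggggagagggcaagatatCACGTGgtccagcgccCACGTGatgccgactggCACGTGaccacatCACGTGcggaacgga
Glb1: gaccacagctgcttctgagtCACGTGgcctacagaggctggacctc
Gla: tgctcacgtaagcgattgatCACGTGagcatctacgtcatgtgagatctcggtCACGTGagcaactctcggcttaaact
Gaa: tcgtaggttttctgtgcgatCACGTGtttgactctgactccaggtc
Ctsd: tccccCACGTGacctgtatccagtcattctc

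The 10 members with TCACGTG were Ctsa, Ctsd, Gla, Glb1, Gaa, Lgmn, Lamp1, Mcoln1, Atp6v1a and Atp6v0d1. Of these, 8 had their highest distal level in alveolar or proliferating alveolar cells, as did 10 of the 18 matched members without it. Their alveolar over monocyte-derived log2 ratios ranged from -1.49 (Lgmn) to 2.86 (Ctsd), so holders of the same letters lay at both ends.

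The niche was then compared with the distal lung within a class. In monocyte-derived macrophage-like cells, the largest class shared by both libraries, 0 of the 32 members were past 1.5-fold higher and 0 lower in the niche, where 8.22% and 11.7% of 10960 genes were. The median log2 ratio of niche over distal was 0.03 over members and -0.02 over all genes, with 16 members above and 16 below 0. Counting intervals lay above 0 for 11 members and below 0 for 7. Single members thus lay in both directions, by less than 1.5-fold each.

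The highest ratios belonged to cathepsins and Cd63. Ctsc was 2515 CPM (2454 to 2578, 6405 UMIs) in distal and 3721 CPM (3695 to 3746, 82615 UMIs) in niche cells, a log2 ratio of 0.56 (0.53 to 0.60). Ctsb (chr14:63122462-63145923, plus strand) was 1751 and 2453 CPM, a log2 ratio of 0.49 (0.44 to 0.53). Cd63 (chr10:128900989-128912822, plus strand) was 343 and 476 CPM (0.47, 0.37 to 0.57). Ctsz (0.33), Lgmn (0.30) and Gla (0.30) followed.

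The lowest ratios belonged to Laptm5, with 811 CPM (776 to 846) in distal and 636 CPM (626 to 647) in niche cells, a log2 ratio of -0.35 (-0.42 to -0.28). Man2b1 was 337 and 269 CPM (-0.33, -0.43 to -0.22), and Lipa 181 and 157 CPM (-0.21, -0.35 to -0.06). Lamp2, Npc2, Lamp1 and Ctsh lay between -0.14 and -0.08 with intervals below 0. Of these, Ctsh was above 0 with cells thinned to equal depth, Lamp1 there and within cluster 2, described below, and Lamp2 within cluster 2, where Lipa was also above 0. For Psap (-0.03), Ctsd (-0.04) and Atp6ap1 (-0.03) the intervals held 0, though other processing choices moved Ctsd between -0.29 and 0.24. The least counted member, Mcoln1, had 34 distal UMIs and an interval from -0.60 to 0.47.

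**Figure D3:**
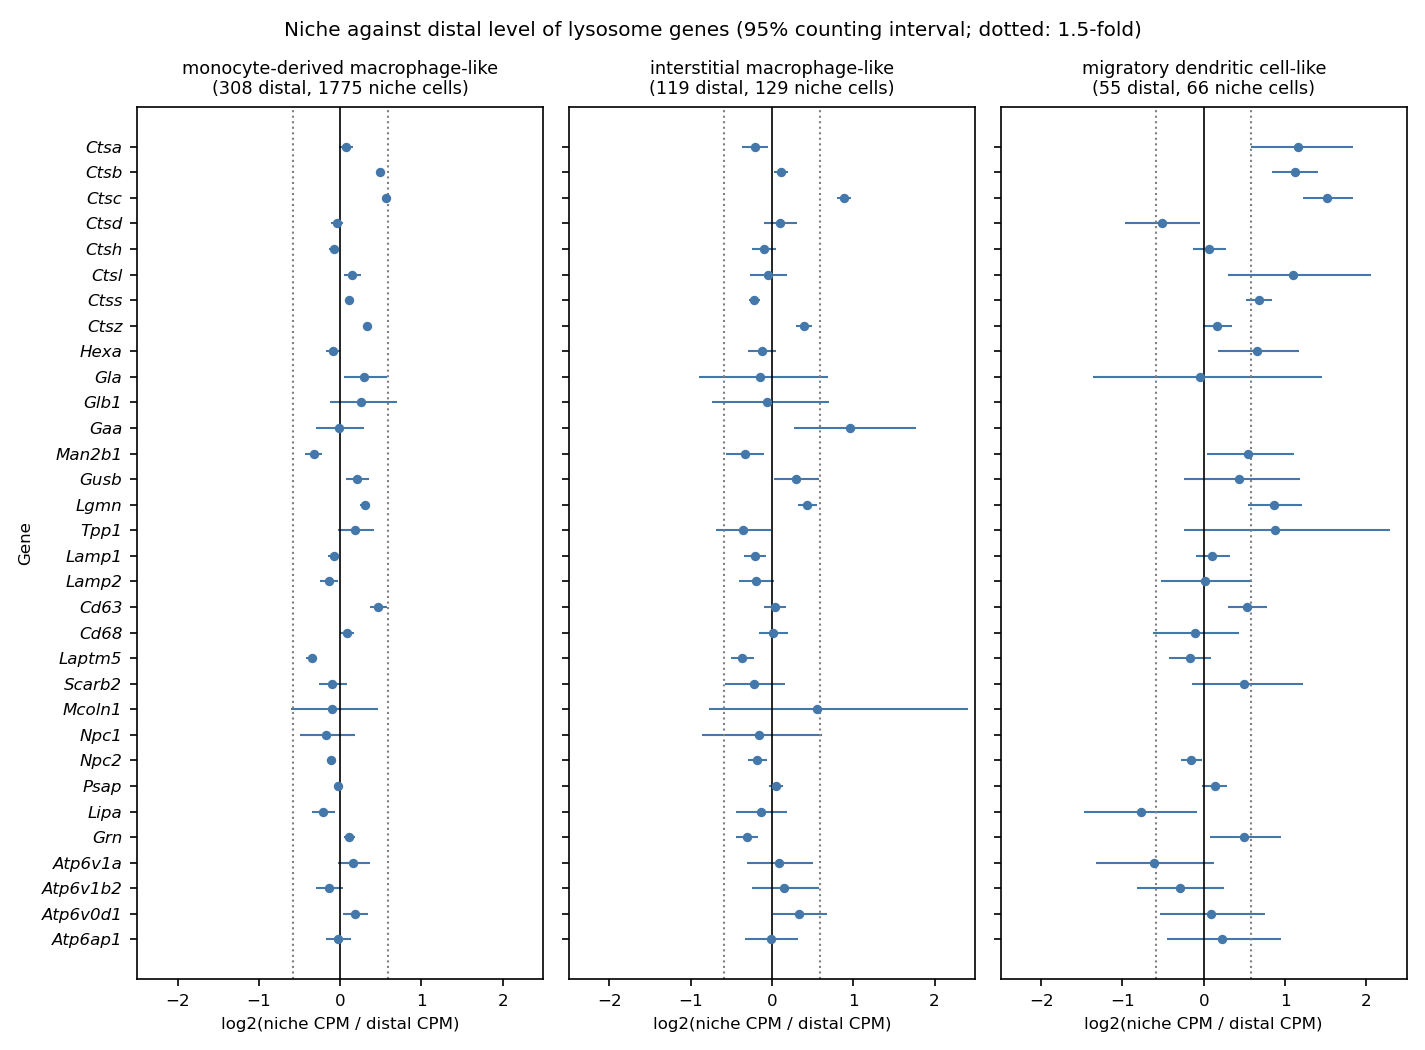
Log2 ratio of niche over distal level (horizontal axis) of each lysosome gene (rows, by role) in monocyte-derived macrophage-like, interstitial macrophage-like and migratory dendritic cell-like cells (panels), with 95% counting intervals as bars and the 1.5-fold marks as dotted lines; genes under 20 UMIs are left out. In the monocyte-derived panel all points lie between the marks, from Laptm5 at -0.35 to Ctsc at 0.56.

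The class was not made of the same clusters in both libraries: distal cells fell mostly in cluster 1 (173 cells, against 90 in cluster 2), niche cells slightly more in cluster 2 (832 against 784). The rest lay in cluster 11, led by interferon-induced genes (31 distal and 153 niche cells), and cluster 23 (14 and 6 cells). Within cluster 1, led by C1q genes, 2 members were past 1.5-fold higher in the niche, Ctsc (0.72, 0.67 to 0.77) and Cd63 (0.68, 0.56 to 0.81), and 0 lower, against 11.5% and 12.0% of genes. Man2b1 was at -0.50 there. Within cluster 2, which carries Ly6c2 and Cfb among its leading genes, 0 members passed in either direction (11.1% and 13.3% of genes). Ctsc was at 0.30 (0.23 to 0.36) and Man2b1 at -0.10 (-0.30 to 0.12) in cluster 2, while Ctsb was at 0.58 and Cd63 at 0.41. The cluster medians over members were 0.01 and 0.08. The small cluster 11 differed from both: Ctsc was at 0.11 (0.00 to 0.23), Cd63 at 0.08 (-0.19 to 0.37) and Man2b1 at 0.05 (-0.34 to 0.49), while Ctsb was at 0.45 (0.33 to 0.58), Ctsh at 0.28 (0.07 to 0.51), Ctsl at 0.93 (0.55 to 1.37) and Tpp1 at 0.91 (0.12 to 1.95). Intervals in cluster 11 also lay above 0 for Ctsa, Ctss and Lgmn. They lay below 0 for Atp6v1b2 (-0.50), Lamp2 (-0.37), Laptm5 (-0.36) and Npc2 (-0.35). The median over members there was 0.05, and over all genes 0.004. In the 14 distal and 6 niche cells of cluster 23, Ctsc was at 0.73 (0.42 to 1.05) and Cd63 at -2.96 (-8.88 to -0.92). Ctsb, Ctsc and Ctsl thus kept ratios above 0 in each cluster, and Cd63 did not. Ctss and Ctsz were likewise above 0 in each. The intervals of Ctsl in cluster 2, Ctss in cluster 1 and Ctsz in clusters 11 and 23 held 0. These clusters were taken singly after the data had been seen. The part in these ratios of the marker sums, which differed between the libraries in this class as given above, was not tested.

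**Figure D4:**
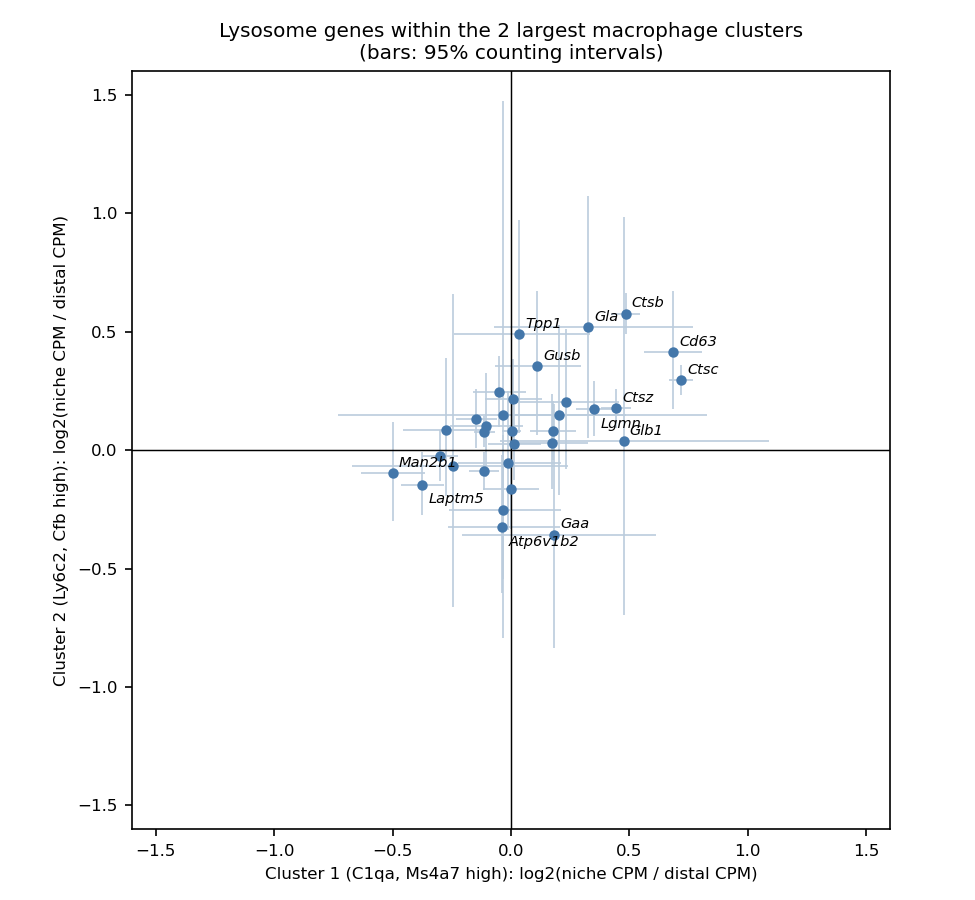
Log2 ratio of niche over distal level of each lysosome gene in cluster 1 (horizontal axis) and in cluster 2 (vertical axis) of the monocyte-derived macrophage-like class; bars are 95% counting intervals and the black lines mark equal levels in both libraries. Ctsb, Cd63, Ctsc and Ctsz lie above 0 on both axes, with Ctsc at 0.72 in cluster 1 and 0.30 in cluster 2.

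In interstitial macrophage-like cells 2 of 32 members were past 1.5-fold higher in the niche and 0 lower, against 18.8% and 13.3% of 8131 genes. They were Ctsc (1682 and 3111 CPM, 0.89, 0.80 to 0.97) and Gaa (24.8 and 49.2 CPM, 0.96, 0.27 to 1.77, from 19 distal UMIs). The median over members was -0.06 and over all genes 0.09. Lgmn (0.43) and Ctsz (0.39) were also above 0, and Laptm5 (-0.37), Tpp1 (-0.36), Man2b1 (-0.33) and Grn (-0.31) below. The interstitial markers summed to 34055 CPM in distal and 23227 CPM in niche cells of this class, with 0 of 12 at 0 in either. Their part in the ratios was not tested.

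Migratory dendritic cell-like cells gave 8 members past 1.5-fold higher and 2 lower of 28 with enough UMIs, against 17.4% and 9.63% of 4850 genes. The higher ones were mostly cathepsins: Ctsc was 274 CPM in distal and 789.9 CPM in niche cells (1.52, 1.22 to 1.84), Ctsa 73.2 and 166 CPM (1.17), Ctsb 348 and 756 CPM (1.12), Ctsl 39.2 and 86.1 CPM (1.10) and Ctss 1071 and 1715 CPM (0.68). Tpp1 (0.88, 8 distal UMIs), Lgmn (0.86) and Hexa (0.66) completed them, and Lipa (-0.78) and Atp6v1a (-0.61) were lower. The intervals of Tpp1 and Atp6v1a held 0. In the same cells the 12 monocyte-derived macrophage markers summed to 1785 CPM in the distal and 5857 CPM in the niche library, with 1 and 0 of them at 0. The interstitial markers summed to 204 and 3079 CPM, with 5 and 3 of 12 at 0 (Folr2, Lyve1 and Cd163 in both), and the 10 neutrophil markers to 2059 and 47.5 CPM. The part of macrophage RNA in these ratios was not tested.

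Ctsc was above 0 in all 11 groups where it could be measured, the non-immune and low-UMI clusters included, from 0.38 in B cells to 1.52 in migratory dendritic cells, with intervals above 0 in 9 of them. They include groups not named as macrophages, such as neutrophils (105 and 279.7 CPM, from 49 and 10 UMIs) and the non-immune cluster (395 and 901 CPM), and classes under 50 niche cells. In the non-immune cluster the monocyte-derived macrophage markers summed to 1781 CPM in the distal and 7960 CPM in the niche library. The same markers summed to 629 and 1231 CPM in neutrophils and to 2197 and 5561 CPM in conventional dendritic cells. The part of macrophage RNA in these ratios was not tested. Lgmn was above 0 in all 10 of its groups, with intervals above 0 in 6, and Ctsb in 9 of 11, with intervals above 0 in 8, the exceptions being monocytes (-0.23, -0.43 to -0.03) and the low-UMI cluster (-0.15). Laptm5 was below 0 in 10 of 11, the non-immune cluster being the exception, with intervals below 0 in 5. For Ctsc and Lgmn the niche T cell levels sit near the free RNA background of that library. Niche T cells (median 2576 UMIs) held 1.501% to 3.93% of the monocyte-derived level (median 11669 UMIs) of C1qa, C1qb, C1qc, Ms4a7 and Cxcl9, and Ctsc at 2.83% and Lgmn at 1.62% lay within that range. Ctsb at 7.02% and Laptm5 at 78.2% lay above it. These niche T cell values rest on few UMIs: 11 for Ctsc, 2 for Lgmn, and from 1 (Ms4a7) to 10 (C1qc and Cxcl9) for the range itself. In niche B cells (median 1736.5 UMIs) C1qa, C1qb, C1qc and Cxcl9 were at 3.63% to 4.91%, while Ms4a7 had 0 UMIs. Above that range lay Ctsc at 7.13%, Lgmn at 6.54%, Ctsb at 7.66% and Laptm5 at 31.3%. In distal T cells the same C1q genes and Cxcl9 were at 0.141% to 0.248%, and Ms4a7 had 0 UMIs. This background thus differed between the libraries, and its part in the ratios was not tested. With 1 library each, the library, its software version and the group cannot be told apart.

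A cluster of 16 distal and 42 niche cells led by Gpnmb, itself a lysosomal glycoprotein outside both lists, carried the highest sums of the 26 groups measured. These were 48715 CPM (47369 to 50089) in the distal and 48540.4 CPM in the niche library, with overlapping intervals. Ctsb was 4688 and 6115 CPM, Psap 6620.2 and 6894 CPM, Cd63 1589 and 2463 CPM and Hexa 1530.0 and 1400.3 CPM. Not all members were raised to that extent: Laptm5 was 785 and 654 CPM and Lipa 177 and 272 CPM, both below the distal alveolar level. With fewer than 50 cells in each library the group is given as values.

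Of 74 further lysosome genes, 73 had enough UMIs in monocyte-derived cells, and 3 were past 1.5-fold higher and 8 lower in the niche, with a median log2 ratio of 0.04. Over all genes of that class the shares were 8.22% and 11.7%, so the count of lower genes was near that of genes at large. Those with at least 100 UMIs were as follows. Ppt1, a thioesterase that removes palmitate from proteins, was 489 CPM in distal and 746 CPM in niche cells (0.61, 0.53 to 0.69), and Cst7, an intracellular inhibitor of cathepsins, was 13.4 and 26.9 CPM (0.99). The secreted inhibitor Cst3 was lower, at 3867 and 2561 CPM (-0.59, -0.63 to -0.56), as were the minor cathepsin Ctsf (-0.85), the sulfatases Arsb (-1.08) and Ids (-0.83) and the sialic acid transporter Slc17a5 (-0.72). The pump subunit Atp6v0c had 10 distal and 41337 niche UMIs (8.82), and its ratio was of similar size in interstitial (8.71, 7.18 to 12.08, from 2 distal UMIs) and migratory dendritic cells (8.09, 6.19 to 13.98, from 1 distal UMI). The distal and niche matrices were made with different software versions, which cannot be told apart from the groups. The interstitial class gave 9 higher and 8 lower of 67, where 18.8% and 13.3% of all genes were, and migratory dendritic cells 14 higher and 3 lower of 47, where 17.4% and 9.63% were.

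Across the same 14 groups, 57 of the 74 further genes could be set against the summed members, with a median correlation of 0.64 against 0.21 for all genes. The 10 genes outside the members with the closest patterns were Tmem106a (0.97), Tnfsf12, Asah1 (both 0.96), Cd302, Cebpa, P2ry6, Sdc3 (all 0.95), Atp6v0b, Tmem141 and Slc31a2 (all 0.94), of 6312 compared. Asah1, acid ceramidase, and Atp6v0b, a pump subunit, are of the further list. The points share 2 libraries and differ in depth.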

How the data were processed

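Single-cell data of 1 distal and 1 niche library of sorted lung immune cells were used. The authors deposited UMI counts per gene and barcode, unnormalised; the submitters' processing notes name Cell Ranger 3.02, Seurat 4.1.1, RSEM, Bowtie2 and the builds mm10 and GRCm38, and per the file headers the distal matrix was written by version 3.0.2 and the niche matrix by version 6.0.0 of the software, with 30149 and 32285 gene rows. Genes were joined by Ensembl identifier.

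Filters required 200 detected genes and no more than 10% of UMIs from mitochondria (405 distal and 161 niche barcodes exceeded the latter). Scrublet's method, with an expected rate of 0.03, called 5 of 6621 cells doublets (0.0755%), which is taken as not having worked, so doublets remain, and leaving out the highest 5% of scores is an alternative. Cells were clustered with scanpy 1.11.5 and leidenalg 0.10.2 under Python 3.11.15 (2000 variable genes without the lysosome genes, 30 components, 20 neighbours, resolution 1.0). Clusters were named from fixed markers where at least 0.75 of a list was present; this rule's thresholds were chosen with the clusters in view.

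UMIs were summed per class and library and divided by the class total. Intervals are exact Poisson (levels) or exact conditional binomial (ratios, 0.5 UMI added) from scipy 1.17.1. A ratio needed 20 UMIs and was counted past 1.5-fold; a count of 0 was given an upper limit of 3 counts. The scripts were tested on simulated data. Values in every class are printed for the 2 members with most UMIs in each role and for any member past 1.5-fold in monocyte-derived cells; of the further list, genes past 1.5-fold with at least 100 UMIs, at most 10, are named. Ctsd, Ctsh, Cd63 and other members beyond that rule were picked after their values were seen. The members and lists were chosen with earlier results of these data known. Alternatives covered the denominator, TMM scaling, UMI minimum, mitochondrial limit, clustering, doublet scores, thinning to 2000 UMIs (606 distal and 421 niche cells left out), averaging over cells and genes sharing exons. Promoter windows came from RefSeq (GRCm38.p6).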

Additional observations from a re-analysis of the deposited data

Results flagged for a closer look

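Monocyte-derived macrophage-like cells were set against interstitial macrophage-like and migratory dendritic cell-like cells alone. For 3 members the niche-over-distal ratio pointed in opposite directions in such a pair, with the counting intervals of both on opposite sides of 0. Over all groups measured, further members had intervals on both sides of 0, such as Ctsb with 8 above and 1 below. The difference between the classes was not tested, since each class had 1 library per group. Ctss was above 0 in monocyte-derived macrophage-like cells (0.10) and below 0 in interstitial macrophage-like cells (-0.22, -0.29 to -0.15), a difference in log2 ratio of -0.32. Grn, the progranulin gene, behaved alike, with 0.11 and -0.31 (-0.45 to -0.18), a difference of -0.42. Man2b1 was below 0 in monocyte-derived cells (-0.33) and above 0 in migratory dendritic cell-like cells (0.55, 0.03 to 1.11), a difference of 0.88. The monocyte-derived side did not hold in each of its clusters: Ctss was at 0.0032 (-0.04 to 0.04) in cluster 1, Grn at 0.08 (-0.04 to 0.21) in cluster 2, and Man2b1 at -0.10 (-0.30 to 0.12) in cluster 2 and 0.05 (-0.34 to 0.49) in cluster 11.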

How the results depend on the processing

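No paired analysis was possible because each group had 1 library. The count of members past 1.5-fold higher in the niche in monocyte-derived cells was 0, and it became 1 of 32 with each cell thinned to 2000 UMIs (Atp6v1a at 0.61) and 2 within cluster 1 alone, an alternative chosen after seeing the data; the cause was not tested. The count lower in the niche was 0 under each alternative run, and the median log2 ratio ran from -0.01 to 0.08. Thinning turned Ctsh to 0.037, Lamp1 to 0.12 and Atp6v0d1 to -0.053, and within cluster 2 alone, also chosen after seeing the data, Lamp1 was 0.13, Lamp2 0.10 and Lipa 0.087. Over these alternatives, which take clusters 1 and 2 singly but not the smaller 11 and 23, Ctsc ran from 0.30 to 0.72, Ctsb from 0.43 to 0.58, Cd63 from 0.29 to 0.68 and Laptm5 from -0.37 to -0.15. In cluster 11 Ctsc was at 0.11 and Cd63 at 0.08. The number of members highest in distal alveolar cells, 17, ran from 12 (resolution 2.0) to 19 (thinned). Intervals cover counting error, so differences between animals or sorts were not measurable, and members with few UMIs, such as Mcoln1, are loosely bounded.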
